A study of Mus musculus with 18 samples.

Results

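The genes described here are 38 members of the hepatic PPAR alpha and fatty acid oxidation programme, chosen by symbol from the 37620 genes of a liver count table, with no threshold on measured values. Of these, 36 had enough counts to be tested among 14226 genes, and the genes Cyp4a12a and Cyp4a12b did not. PPAR alpha (Ppara) is a nuclear receptor that binds fatty acids in hepatocytes and, paired with the retinoid X receptor, switches on genes for their uptake and breakdown, above all in fasting. Long-chain fatty acids are shortened in mitochondria after entry by the carnitine shuttle, very long-chain ones begin in peroxisomes, and enzymes of the Cyp4a family start a side route by hydroxylating the omega end. The members fall by role into the receptor itself, 7 genes of uptake, binding and other targets, 13 mitochondrial genes, 11 peroxisomal genes and 6 genes of omega hydroxylation.

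Messenger RNA was sequenced from flash-frozen livers of female mice in groups of 6, and neither strain nor genotype is given. Young mice were 7 weeks of age and had no treatment. Old mice were sampled at 24 months of age and received either vehicle or ouabain at 1 mg/kg, a plant glycoside that inhibits the Na,K-ATPase of the cell membrane. Treatment came in rounds of 4 doses a week, separated by 2 weeks without treatment, over 12 weeks, and livers were collected 3 days after the final round. The design describes 16 old mice aged 21 to 22 months at the start, and 12 libraries of old mice are analysed here. Young mice went through no course of injections that the labels mention, so age and handling cannot be told apart in comparisons with them.

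Library totals were 4201251 to 11113307 counts, and the shallowest library, old ouabain replicate 5, was followed by one of 7527846. Levels are given in CPM, the share of a library's counts after scaling between libraries with TMM factors, and the members together held 0.903 to 1.18% of the counts in young, 0.555 to 1.36% in old vehicle and 0.899 to 1.07% in old ouabain livers. Both ends of the old vehicle range were single libraries, replicate 1 at 0.555% and replicate 6 at 1.36%. Old vehicle replicate 6 stands apart in these genes, and results that rest on it are given with and without it. The hepatocyte marker Alb had a median of 102200 CPM in young, 90340 CPM in old vehicle and 89410 CPM in old ouabain livers. Alb does not stand for all 9 hepatocyte markers listed. Of these, 8 had log2 fold changes below 0 in old vehicle against young, and 7 had ones above 0 in old ouabain against old vehicle. In bulk liver, fewer cells of a type and less RNA per cell cannot be told apart.

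Levels per kilobase of exon (CPM per kb, exon lengths from GENCODE M21 on GRCm38) place the members relative to each other. The liver fatty acid-binding protein gene Fabp1 was highest, with a mean of 5470 CPM per kb in young livers. The peroxisomal thiolase Acaa1b followed at 405 CPM per kb, and then came Slc27a2, which takes up and activates very long-chain fatty acids, at 294.9 CPM per kb. Pdk4, the kinase that restrains pyruvate dehydrogenase, was the lowest tested member at 1.38 CPM per kb in young livers. Nudt7, whose peroxisomal product splits coenzyme A and its esters, ranked 14 of 38 in young, 29 in old vehicle and 17 in old ouabain livers.

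One promoter is shown because PPAR alpha acts through a repeated hexamer in DNA, and Fabp1 is a much studied example of such a target. RefSeq (GRCm38.p6) gave windows of 300 bases around the start for 28 of the 38 members, 30 windows in all. The exact form, the hexamer AGGTCA repeated after 1 base of any kind and searched on both strands, was in 0 of these 30 windows and in 0.0396% of all 32851 windows. The looser form, AGGNCA repeated in the same way with N for any base, includes every match of the exact one and was in 1 of 30 windows (3.33%) and in 0.381% of all windows. That match was in the Fabp1 window (chr6:71199629-71199928, plus strand), at bases -67 to -55 from the start. The matching letters, on the reverse strand, are in capitals.
Fabp1: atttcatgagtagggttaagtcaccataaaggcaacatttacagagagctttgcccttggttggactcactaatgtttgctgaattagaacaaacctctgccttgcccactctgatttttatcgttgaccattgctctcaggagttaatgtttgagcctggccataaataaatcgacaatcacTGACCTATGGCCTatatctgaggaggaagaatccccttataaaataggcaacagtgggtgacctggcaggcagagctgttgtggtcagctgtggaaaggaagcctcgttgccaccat
A match of letters describes the window and shows no binding.

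**Figure D1:**
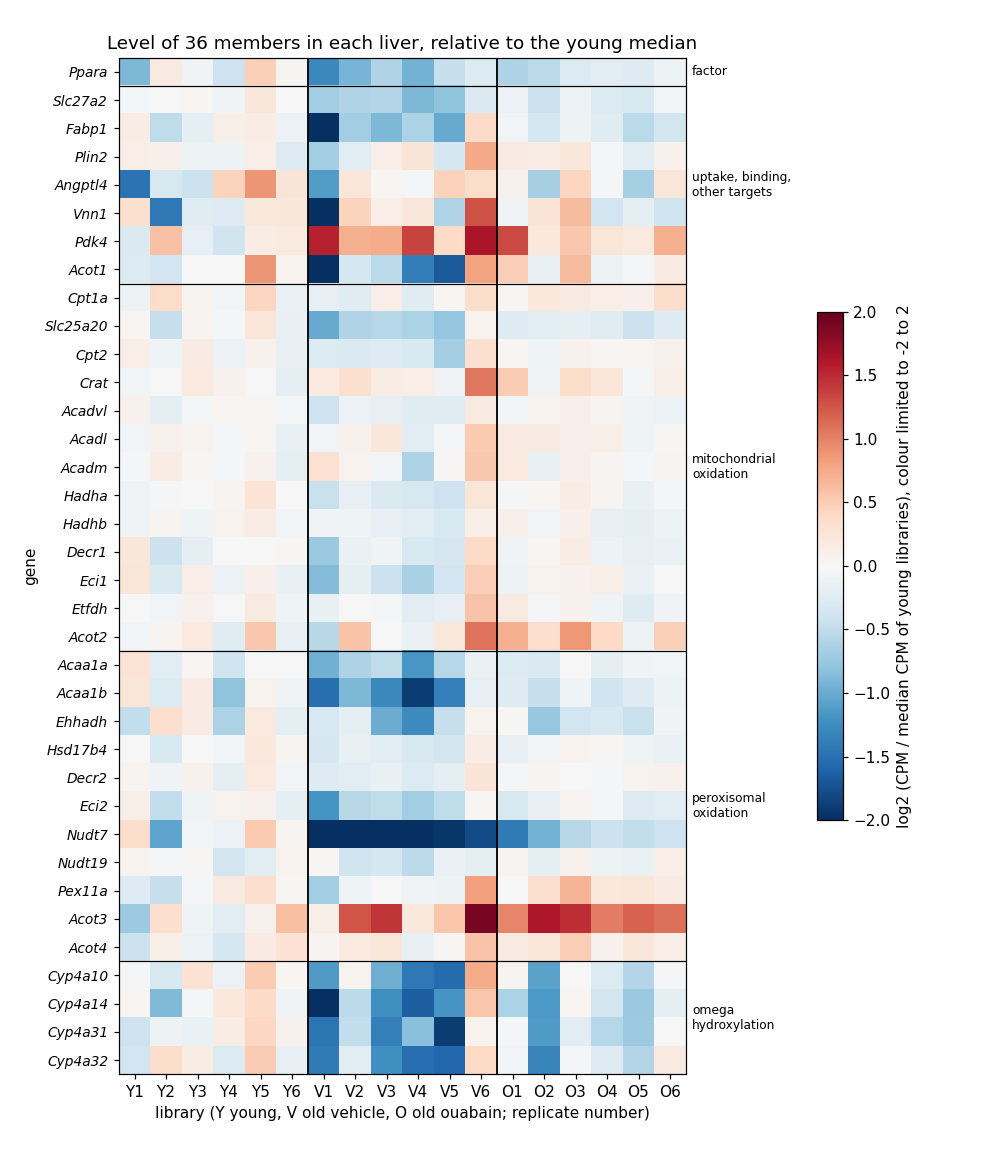
Level of each of the 36 tested members (vertical axis, by role) in each of 18 livers (horizontal axis) as log2 of CPM over the median of the young livers, with colour limited to -2 to 2. Nudt7 is blue in all 6 old vehicle livers and paler in the old ouabain livers, Pdk4 and Acot3 are red in old vehicle livers, and old vehicle replicate 6 is redder than its group in nearly every gene.

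The first comparison asks how the programme differs between old and young liver, old vehicle against young. In old livers the receptor was lower, as were 4 of 11 peroxisomal genes, 1 of 7 genes of uptake and other targets, 1 of 13 mitochondrial genes and 1 of 4 tested omega hydroxylases. Pdk4 and the peroxisomal Acot3 were higher. Of 36 tested members 8 fell and 2 rose, a share of 27.8%, where 19.2% of all 14226 genes passed the same test (edgeR quasi-likelihood, adjusted p below 0.05). Genes that fell made up 8.32% of all tested genes and genes that rose 10.9%. The median log2 fold change of the members was -0.18 and that of all genes -0.01, with 24 members below 0 and 12 above.

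The receptor Ppara (ENSMUSG00000022383) had 28.9, 53.8 and 74.9 CPM as lowest, median and highest value in young livers and 21.9, 31.8 and 44.6 CPM in old vehicle livers. The groups overlapped, and 3 old vehicle livers lay below every young liver. Its log2 fold change was -0.67 (SE 0.20, edgeR adjusted p = 0.023), and without young replicate 5, the highest young liver, the adjusted p was 0.0616. In old ouabain livers its values were 35.2, 44.7 and 50.3 CPM.

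Among genes of uptake and binding, Slc27a2 (ENSMUSG00000027359) fell from 1033, 1085 and 1270 CPM (lowest, median, highest) in young livers to 584, 693 and 890 CPM in old vehicle livers. All 6 old vehicle livers were below all 6 young livers. The log2 fold change was -0.66 (SE 0.10, edgeR adjusted p = 0.000131). Groups that do not overlap were seen in 7.19% of all tested genes and in 2 of the 36 members, Slc27a2 and Nudt7.

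Pdk4 (ENSMUSG00000019577) went the other way. It had 3.55, 4.68 and 7.03 CPM in young livers and 6.15, 9.85 and 14.5 CPM in old vehicle livers, and 5 of 6 old vehicle livers exceeded every young one. Its log2 fold change was 1.08 (SE 0.24, edgeR adjusted p = 0.00351). Fabp1 (ENSMUSG00000054422) spread widely in old vehicle livers, from 756 through a median of 1805 to 4063 CPM, against 2191, 3126 and 3482 CPM in young livers. Of the old vehicle livers 5 were below every young liver and 1, replicate 6, above every young liver, and the log2 change of -0.60 (SE 0.26, edgeR adjusted p = 0.124) did not pass. The cytosolic acyl-CoA thioesterase Acot1 (ENSMUSG00000072949) was also highest of its group in replicate 6, with 3.32, 8.84 and 28.9 CPM in old vehicle against 12.6, 16.4 and 30.5 CPM in young livers and a log2 change of -0.65 (SE 0.40, edgeR adjusted p = 0.28). The lipid droplet coat gene Plin2, the lipoprotein lipase inhibitor Angptl4 and the pantetheinase Vnn1 did not pass, with log2 fold changes of 0.07, 0.00 and 0.28. Their 95% intervals were -0.29 to 0.43, -0.71 to 0.71 and -0.70 to 1.26.

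In the mitochondrial group 1 of 13 genes fell and none rose. The one that fell was Slc25a20 (ENSMUSG00000032602), the carrier that brings acylcarnitines across the inner membrane, with 70.0, 96.3 and 115 CPM in young and 48.0, 62.5 and 101 CPM in old vehicle livers. It was below every young liver in 5 of 6 old vehicle livers, with replicate 6 inside the young range, and its log2 fold change was -0.51 (SE 0.14, edgeR adjusted p = 0.0116). The other 12 had log2 fold changes from -0.27 to 0.33. They include Cpt1a, which makes acylcarnitines at the outer membrane, at -0.11 with a 95% interval of -0.35 to 0.13. Acadvl and Acadm, which open the cycle for very long and medium chains, were at -0.14 (-0.33 to 0.04) and 0.08 (-0.19 to 0.35). Hadha, a subunit of the trifunctional protein, was at -0.26 (-0.47 to -0.04) with an edgeR adjusted p of 0.0837.

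The peroxisomal group held 4 falls and 1 rise among 11 genes. Nudt7 (ENSMUSG00000031767) had 163, 339 and 490 CPM in young livers and 55.3, 65.3 and 97.8 CPM in old vehicle livers, as lowest, median and highest value. The highest old vehicle liver lay below the lowest young one. This was a 4.82-fold lower level, with -2.27 as log2 fold change (SE 0.24, edgeR adjusted p = 1.04e-05), the largest change among the 36 members.

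Both genes for peroxisomal 3-ketoacyl-CoA thiolase, the last step of the cycle, were lower. Acaa1b (ENSMUSG00000010651) had 481, 837 and 988 CPM in young and 224, 333 and 746 CPM in old vehicle livers, 2.01-fold lower (log2 fold change -1.01, SE 0.23, edgeR adjusted p = 0.00529). Acaa1a (ENSMUSG00000036138) had 279.6, 368 and 446 CPM in young and 164, 245 and 338 CPM under vehicle in old livers (log2 fold change -0.58, SE 0.14, edgeR adjusted p = 0.00535). For each thiolase 5 of 6 old vehicle livers lay below every young liver, and replicate 6 did not. Eci2 (ENSMUSG00000021417), an isomerase for unsaturated chains, had 116, 164 and 178 CPM in young and 71.3, 113 and 167 CPM under vehicle in old livers (log2 fold change -0.47, SE 0.14, edgeR adjusted p = 0.029). Its call was lost on leaving out young replicate 1, 4 or 5 or old vehicle replicate 2 or 4, with adjusted p between 0.0515 and 0.0647.

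The peroxisomal thioesterase Acot3 (ENSMUSG00000021228) rose. It had 27.2, 45.1 and 68.3 CPM in young and 49.0, 86.9 and 169 CPM in old vehicle livers, and the 3 highest old vehicle livers exceeded every young one. The log2 fold change was 1.01 (SE 0.29, edgeR adjusted p = 0.0213), and the adjusted p was 0.0592 when only the 12 libraries compared were fitted. The 6 peroxisomal genes that did not pass had log2 fold changes from -0.40, in the bifunctional enzyme gene Ehhadh (95% interval -0.85 to 0.05), to 0.20, in the thioesterase gene Acot4. Nudt19, a peroxisomal enzyme of the same kind as Nudt7, was at -0.18 (95% interval -0.39 to 0.02).

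All 4 tested Cyp4a genes were below 0, and 1 of them passed. Cyp4a31 (ENSMUSG00000028712) had 37.9, 50.4 and 67.1 CPM in young and 13.5, 24.0 and 53.1 CPM under vehicle in old livers (log2 fold change -0.86, SE 0.28, edgeR adjusted p = 0.04). That call did not stand on leaving out any 1 of young replicates 3, 4, 5 and 6 or old vehicle replicates 1, 3, 4 and 5, with adjusted p from 0.0538 to 0.0905. Cyp4a14 had 348, 639 and 835 CPM in young livers and 109, 277 and 938 CPM in old vehicle livers, with a log2 change of -0.76 (95% interval -1.59 to 0.07). Old vehicle replicate 6 was its highest value of all 18 livers, and 4 other old vehicle livers were below every young one. Cyp4a10 and Cyp4a32 had log2 fold changes of -0.53 (-1.27 to 0.20) and -0.78 (-1.50 to -0.05) and edgeR adjusted p of 0.313 and 0.128.

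The untested Cyp4a12a and Cyp4a12b, which are known in mouse as genes expressed far more in male than in female liver, had few counts. Cyp4a12a had 40 counts over the young libraries, 1 over the old vehicle and 20 over the old ouabain libraries. Cyp4a12b had 14, 0 and 14. With a floor of 3 counts per library, levels under 0.282 to 0.308 CPM could not be seen in the old vehicle libraries.

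**Figure D2:**
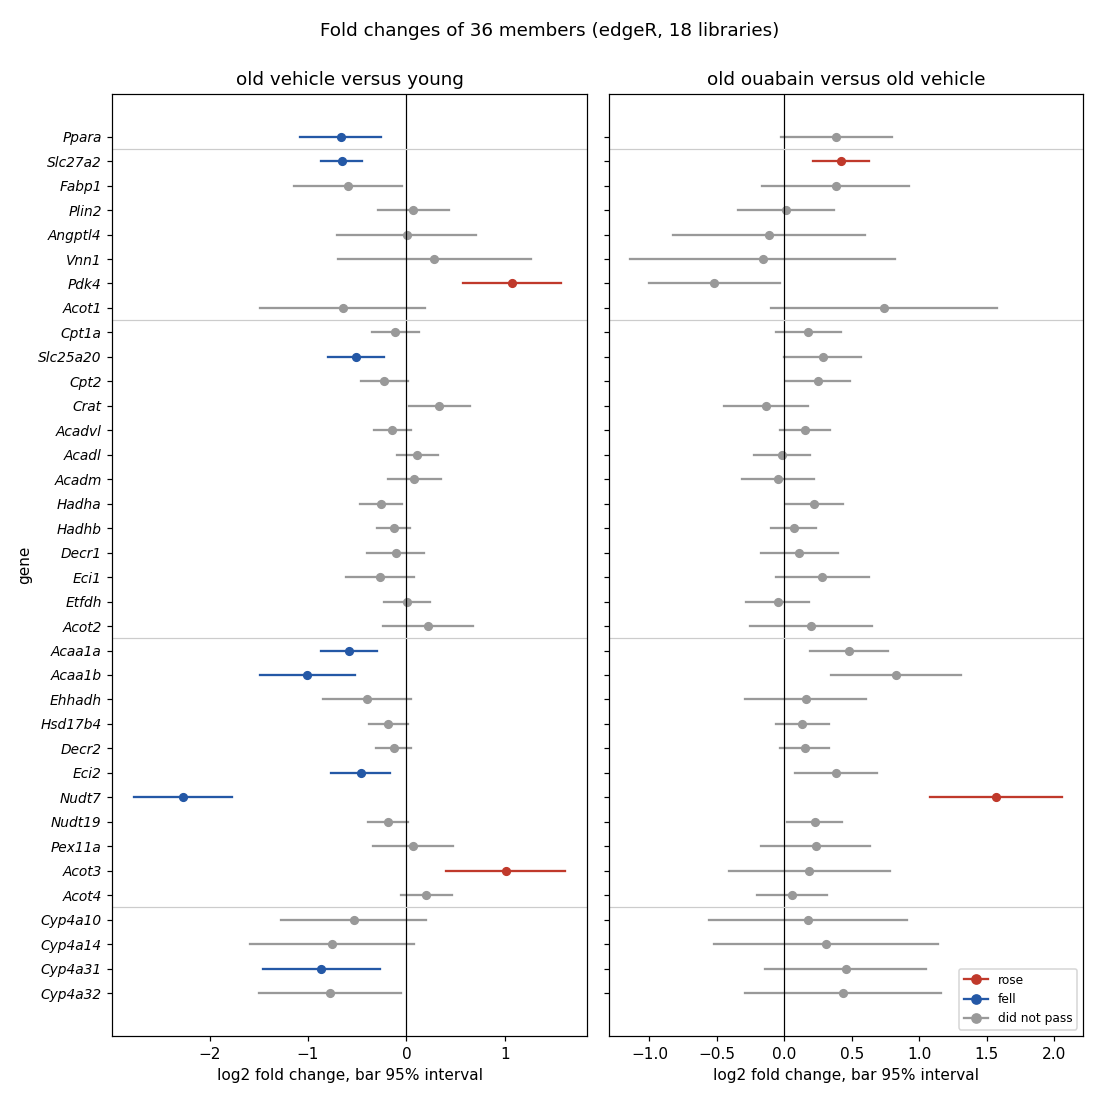
Log2 fold change with its 95% interval (horizontal axis) of the 36 tested members (vertical axis, by role) for old vehicle versus young and old ouabain versus old vehicle, coloured where the adjusted p was below 0.05. Nudt7 stands at -2.27 and 1.57, and the mitochondrial genes other than Slc25a20 lie between -0.27 and 0.33 in the left panel.

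The second comparison sets ouabain against vehicle in old livers. The same old vehicle libraries serve in both comparisons, so a low old vehicle value enters both, with opposite sign, and the values are set side by side only. Nudt7 and Slc27a2 rose under ouabain and no member fell, so 2 of 36 tested members (5.56%) passed where 1.84% of all genes did. Of all genes 0.991% rose and 0.851% fell. The median log2 fold change of the members was 0.19 (all genes -0.01), with 29 above 0 and 7 below. At an unadjusted p under 0.05 there were 9 members higher and 1 lower, where 9.31% of all genes were higher and 10.8% lower.

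Nudt7 had 127, 235 and 254 CPM in old ouabain livers as lowest, median and highest value, against 55.3, 65.3 and 97.8 CPM under vehicle. Every ouabain liver lay above every vehicle liver, and 5 of 6 lay within the young range. The level was 2.96-fold higher, with 1.57 as log2 fold change (SE 0.23, edgeR adjusted p = 0.00405). Among the tested members it was the only one whose ouabain and vehicle livers did not overlap, where 2.05% of all genes did not.

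Slc27a2 had 808, 948 and 1044 CPM under ouabain against 584, 693 and 890 CPM under vehicle. In 4 of 6 ouabain livers it exceeded every vehicle liver. The log2 fold change was 0.42 (SE 0.10, edgeR adjusted p = 0.0321). This call passed in 9 of the 18 fits that leave out 1 library: it was lost on omitting any 1 of old vehicle replicates 1 to 5 or old ouabain replicates 3 to 6, with adjusted p from 0.0521 to 0.0894 and log2 fold changes from 0.37 to 0.44.

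The peroxisomal genes were above 0 in 11 of 11 cases, from 0.06 in Acot4 to 1.57 in Nudt7, and Nudt7 alone passed. Acaa1b had 606, 700.1 and 792 CPM under ouabain, and its log2 change of 0.83 (SE 0.23, edgeR adjusted p = 0.069) missed the threshold. It passed in 4 of 9 other settings, among them DESeq2 (adjusted p = 0.0116), voom (0.033) and a replicate block (0.0318). It did not pass in the rest, among them the fit of only the 12 libraries compared. Of the 18 fits that leave out 1 library it passed in 1, the fit without old vehicle replicate 6. All 6 ouabain livers exceeded the vehicle median and 2 exceeded every vehicle liver. Acaa1a had 303, 338 and 370.5 CPM under ouabain and a log2 change of 0.48 (SE 0.14, edgeR adjusted p = 0.0709).

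Acot1 had 14.7, 17.3 and 25.5 CPM under ouabain and a log2 change of 0.74 (SE 0.40, edgeR adjusted p = 0.308). Pdk4 had 5.34, 6.19 and 11.6 CPM and a log2 change of -0.52 (SE 0.23, edgeR adjusted p = 0.216), and 3 of 6 ouabain livers lay below every vehicle liver. Ppara was at 0.39 (SE 0.20, edgeR adjusted p = 0.279). None of the 13 mitochondrial genes passed, with log2 fold changes from -0.13 in Crat to 0.28 in Slc25a20. The Cyp4a genes were all above 0, from 0.18 to 0.45, with none passing and wide intervals, for example -0.52 to 1.14 in Cyp4a14.

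**Figure D3:**
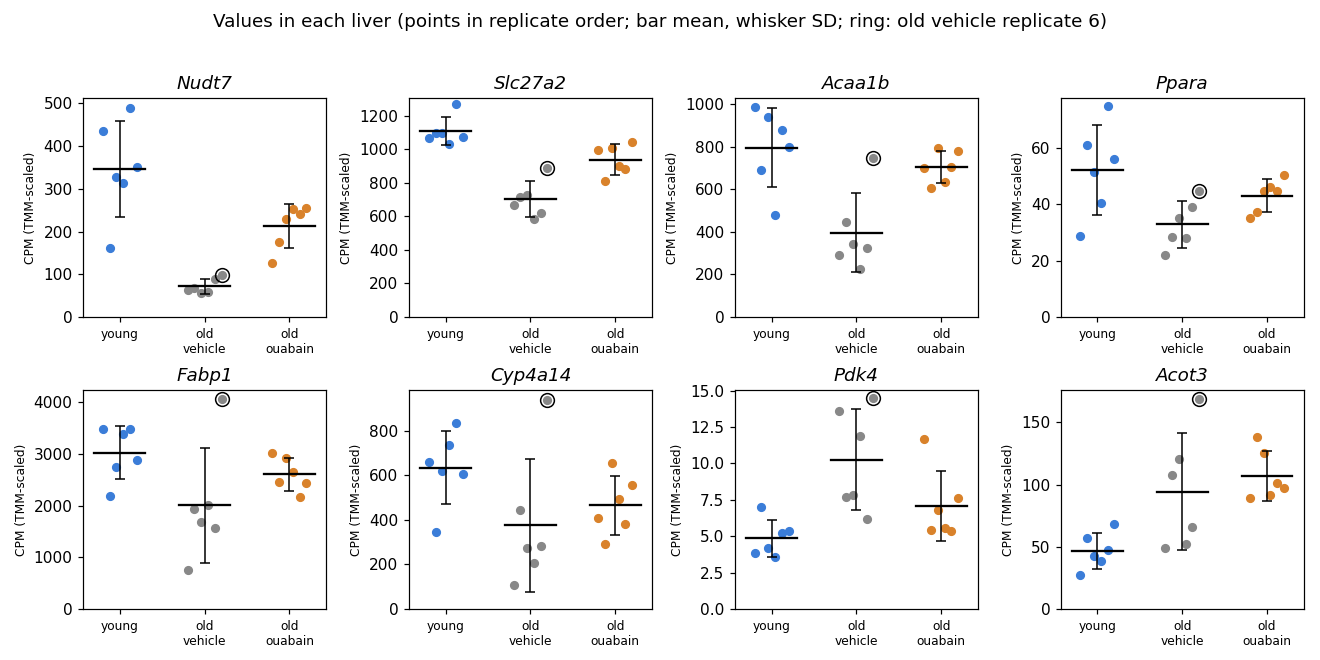
CPM (vertical axis, from 0) of 8 members in each liver, with points in replicate order, a bar for the mean and a whisker for the SD of 6 livers, and a ring around old vehicle replicate 6. Nudt7 and Slc27a2 are low in every old vehicle liver, whereas in Fabp1 and Cyp4a14 the ringed liver lies far above the rest of its group.

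Set directly against young livers, old ouabain livers had 0 of 36 members past the edgeR threshold, where 1.12% of all genes passed (0.738% higher and 0.387% lower). At an unadjusted p under 0.05 there were 3 members higher and 2 lower, where 8.85% of all genes were higher and 7.61% lower. Nudt7 was 1.63-fold lower than in young livers, a log2 change of -0.70 (95% interval -1.18 to -0.22, edgeR adjusted p = 0.14). DESeq2 called it (adjusted p = 0.0388), and so did edgeR without young replicate 2, the lowest young liver (log2 fold change -0.85, adjusted p = 0.0275). Acot3 had 89.0, 99.2 and 138 CPM under ouabain, above every young liver in all 6 cases, with a log2 change of 1.19 (SE 0.29, edgeR adjusted p = 0.0548). It was the 1 member of 36 without overlap, where 2.19% of all genes had none. It passed in 5 of 9 other settings: DESeq2 (adjusted p = 0.00118), voom (0.0331), voom with quality weights (0.00866), only the 12 libraries compared (0.0091) and the replicate block (0.0142). Leaving out young replicate 1 or old vehicle replicate 1, 4 or 6 moved its adjusted p to between 0.0289 and 0.0499, and across all 18 such fits it ran up to 0.157. Pdk4 was at 0.56 (95% interval 0.04 to 1.07, edgeR adjusted p = 0.264) and Slc27a2 at -0.24 (-0.44 to -0.03, edgeR adjusted p = 0.23). A p above the threshold does not show that the ouabain and young livers were alike.

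The old vehicle group differed from the others in its spread. Its median was the lowest of the 3 groups in 27 of 36 members, against 37.4% of all tested genes. The relative spread was widest in old vehicle livers in 30 of 36 members, against 37.1% of all genes. Without replicate 6 that held for 21 of 36 members, against 34.7% of all genes, and the median was lowest in 28 of 36, against 39% of all genes. The highest value was a median of 1.59 times the lowest in young livers, 2.21 times in old vehicle livers and 1.34 times in old ouabain livers. Without old vehicle replicate 6 the old vehicle figure was 1.61.

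Old vehicle replicate 6 was above its own group mean in all 36 tested members, with a median deviation of 0.58 on the log2 scale. Over all tested genes 52.1% were above, with a median deviation of 0.01. Of 114 other tested genes of fatty acid oxidation and PPAR alpha, listed further below, 77.2% were above. Their median deviation was 0.204, with a range from -1.309 to 1.775. The members were thus more one-sided in this liver than the longer list. Old vehicle replicate 6 held the highest value of its group in 34 of 36 members, against 20.8% of all genes. The deviation of the members ran from 0.08 in Nudt19 to 1.69 in Acot1. Its median by role was 0.57 in mitochondrial, 0.53 in peroxisomal and 1.38 in tested Cyp4a genes. The next most one-sided libraries were young replicate 5, with 35 of 36 members above its group mean and a median of 0.21, and old ouabain replicate 3, with 34 of 36 and 0.15. Old vehicle replicates 1 and 4 had 5 of 36 members above, with medians of -0.32 and -0.20.

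In the same liver all 12 macrophage markers were below their group mean (median deviation -0.61). These markers were also low in old vehicle replicate 1, with 2 of 12 above and a median of -0.51, where the members were low. The same held for replicate 5, with 3 of 12 and -0.50. In replicate 4 the markers were high, with 10 of 12 above and a median of 0.845, and the members were low. In replicates 2 and 3 the markers were above in 8 and 10 of 12 cases, with medians of 0.381 and 0.414. The members were above in 25 and 16 of 36 cases there. The 9 hepatocyte markers were split in replicate 6, 5 above and 4 below (median 0.05). Of 14 tested fasting and feeding genes 6 were above the group mean there, with deviations from -1.23 to 1.10 and a median of -0.19. Of 15 clock genes 6 were above, from -1.37 to 0.89 with a median of -0.07. None of these lists had all its genes above the group mean, as the members did. The part of feeding, time of day and cell makeup in the members' levels was not tested.

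**Figure D4:**
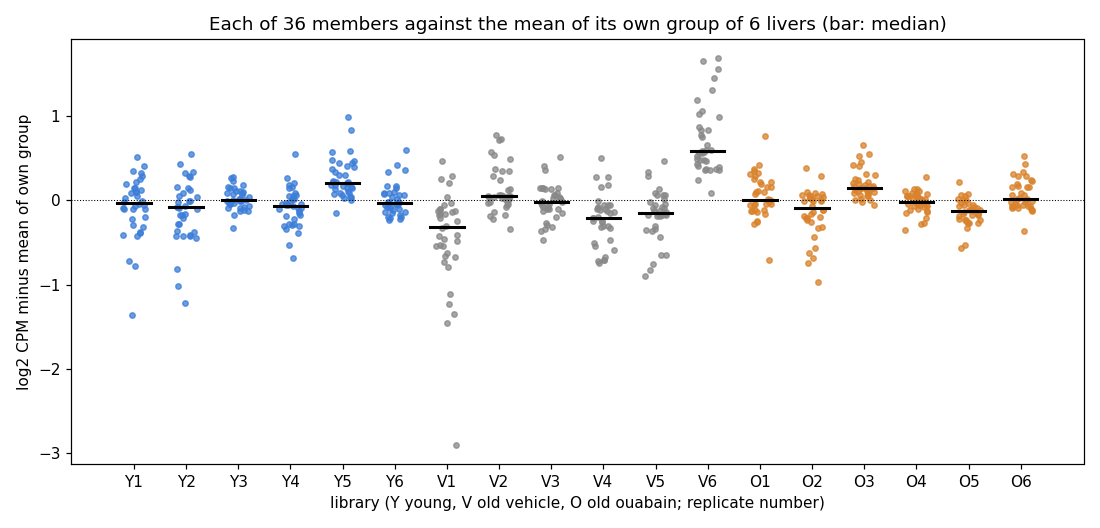
Each of the 36 tested members in each of 18 livers (horizontal axis) as log2 CPM minus the mean of its own group of 6 (vertical axis), with a bar at the median. All points of old vehicle replicate 6 lie above 0 with a median of 0.58, and old vehicle replicate 1 has the lowest median, -0.32.

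Leaving that liver out changed the counts more than leaving out any other. Since it was the highest old vehicle liver in 34 of 36 members, its removal lowers the old vehicle means by construction. It also narrows the members' spread in old vehicle livers, from a median 2.21-fold range to 1.61-fold. More falls against young and more rises under ouabain are thus built in, and the counts below are no separate support. This liver was the highest of its group in 20.8% of all genes, so the share of all genes is not a like comparison. Old vehicle against young then gave 18 falls and 2 rises among 36 members, where 20.7% of all genes passed, 9% with a fall and 11.7% with a rise. All 8 falls and both rises with all 18 libraries were among them. The 10 added falls were Fabp1 (log2 fold change -0.92, edgeR adjusted p = 0.00205), Acot1 (-1.17, adjusted p = 0.0126), the mitochondrial Cpt2, Hadha and Eci1, the peroxisomal Hsd17b4 and Decr2, and the omega hydroxylases Cyp4a10, Cyp4a14 and Cyp4a32. All 4 tested Cyp4a genes then fell, by 0.95 to 1.26 on the log2 scale.

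Old ouabain against old vehicle gave 11 rises and 0 falls without that liver, where 4.47% of all genes passed and 1.87% rose. Besides Nudt7 (1.67, edgeR adjusted p = 0.00298) and Slc27a2 (0.49, adjusted p = 0.00636), these were Fabp1 (0.70), Acot1 (1.27), Slc25a20 (0.44), Cpt2 (0.38), Hadha (0.32), Eci1 (0.49), Acaa1a (0.60), Acaa1b (1.10) and Eci2 (0.52), as log2 fold changes. Of the 13 mitochondrial genes 4 rose, and of the 11 peroxisomal genes 4 rose. No Cyp4a gene passed, with a median log2 fold change of 0.76. In the 17 fits that kept old vehicle replicate 6 and left out another library, the members called numbered 1 to 2 in this comparison and 7 to 10 in old vehicle against young.

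**Figure D5:**
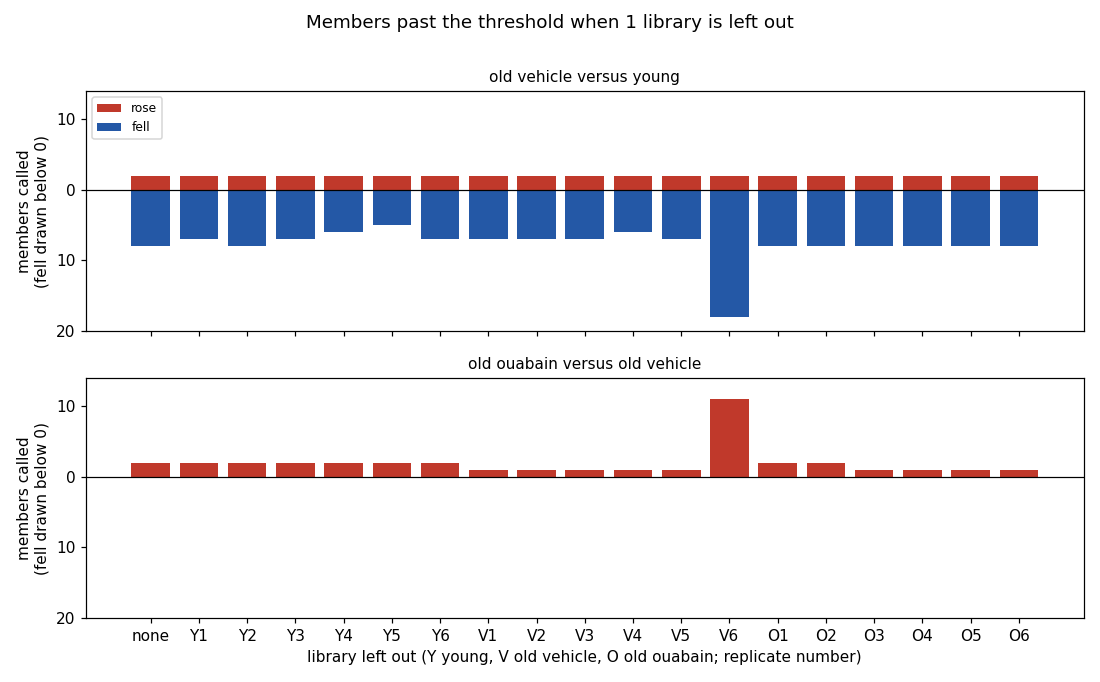
Number of tested members called higher (red, above 0) and lower (blue, drawn below 0) at an adjusted p below 0.05 with all 18 libraries and with each library left out in turn (horizontal axis). The bars without old vehicle replicate 6 reach 18 falls and 2 rises against young and 11 rises under ouabain, and the others total 7 to 10 and 1 to 2.

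A longer list of genes of fatty acid oxidation and PPAR alpha regulation, outside the 38 members, had 114 tested genes. In old vehicle against young 22 fell and 8 rose, a share of 26.3% where 19.2% of all genes passed. Among those that fell, the peroxisomal fatty acid importer Abcd3 was at -0.53, catalase (Cat) at -0.42, the fasting-induced liver factor Creb3l3 at -0.70 and the receptor partner Rxra at -0.36, as log2 fold changes. The fatty acid transporter gene Cd36 rose from 51.5, 71.0 and 86.8 CPM in young to 152, 163 and 232 CPM in old vehicle livers, with no overlap (log2 fold change 1.35, SE 0.13, edgeR adjusted p = 1.29e-06).

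In old ouabain against old vehicle 2 of these 114 genes rose and 2 fell, a share of 3.51% where 1.84% of all genes passed. The malonyl-CoA decarboxylase gene Mlycd rose by 0.28 and Cyp4f14, another omega hydroxylase, by 0.46 on the log2 scale (edgeR adjusted p = 0.0285 and 0.0272). Cd36 fell by 0.72 and the acyl-CoA dehydrogenase gene Acad9 by 0.35 (edgeR adjusted p = 0.00773 and 0.0424). Against young, Cd36 and Acad9 were higher in old ouabain livers, by 0.63 and 0.42, and no other gene of the list passed. That is a share of 1.75%, where 1.12% of all genes passed. Without old vehicle replicate 6 the list gave 11 rises and 2 falls under ouabain and 9 rises and 30 falls in old vehicle against young. Of all genes 4.47% and 20.7% passed in these fits. In the omitted liver 77.2% of the list was above the group mean, so part of this change is built in, as for the members.

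Markers of some other cells moved with the groups. Of all genes 19.2% passed in old vehicle against young, 1.84% under ouabain and 1.12% in old ouabain against young. In old vehicle against young 1 of 8 stellate cell markers rose, and 0 of 6 endothelial, 0 of 5 bile duct and 0 of 3 tested erythroid markers passed. None of these passed under ouabain. All 12 macrophage markers rose in old vehicle against young, with summed levels of 254.3 to 366 CPM in young, 502 to 1877 CPM in old vehicle and 359 to 1027 CPM in old ouabain livers, and 3 of 12 fell under ouabain. Of 9 hepatocyte markers 5 fell in old vehicle against young and 0 passed under ouabain. The median log2 fold change of these markers was -0.378 in old vehicle against young (8 of 9 below 0). Under ouabain it was 0.144 (7 of 9 above 0), the same signs as the members' medians. Their summed levels were 113400 to 168100 CPM in young, 98980 to 149900 CPM in old vehicle and 113100 to 141000 CPM in old ouabain livers. B and plasma cell markers were higher in old livers: 4 of 6 rose in old vehicle against young, Igkc 17.4-fold and Ighm 15.8-fold, and 3 of 6 in old ouabain against young, while 0 passed under ouabain. Of 8 adipocyte markers Plin1 and Lep were at 0 in all 18 libraries and Adipoq at no more than 0.108 CPM. The 3 that could be tested, Car3, Fabp4 and Lipe, did not pass, with log2 fold changes of -0.79, -0.69 and -0.27 in old vehicle against young and 0.55, 0.30 and 0.42 under ouabain, the same signs as the members' medians. The summed list was at 840.4 to 1627 CPM in young, 355 to 1423 CPM in old vehicle and 803 to 1209 CPM in old ouabain livers. Its highest old vehicle value was in replicate 6. Plin1, Lep and Adipoq add almost nothing to this sum, and Fabp4 and Lipe also belong to the longer list of fatty acid genes. The sum is therefore not a measure of adipocyte RNA. Nudt7 is 1 of 16 genes of a list of male-biased liver genes, of which 13 were tested. Of these 9 fell and 1 rose in old vehicle against young (76.9%, all genes 19.2%). Under ouabain 7 rose, Nudt7 among them (53.8%, all genes 1.84%). The list was chosen with earlier results of these data known, so these shares are no independent evidence. The part of cell makeup and of the male-biased programme in the members' changes was not tested.

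Several members have close copies, and how reads shared by copies were assigned is not known here. The Acaa1a and Acaa1b transcripts shared 34.0% and 35.5% of their 50-base words. Acot1 shared 23.7% with Acot2, Cyp4a32 shared 34.8% with Cyp4a10, and Cyp4a12a shared 48.9% with Cyp4a12b. Cyp4a31 shared 12.8% with Cyp4a10 and 15.5% with Cyp4a32. Single values within these sets of copies are therefore uncertain. Nudt7 shared 0% with Nudt19, and Cyp4a14 shared 0% with the other Cyp4a genes.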

How the data were processed

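The deposited values are raw read counts for 18 libraries, by Ensembl gene and not normalized. TopHat2 2.0.11 (build mm9) and featureCounts were used, per the submitters' processing notes. Not given in the sources used here are the strand, the annotation release and the handling of multiply mapped reads, which could move counts between close copies. Symbols were matched for 32897 genes, and genes without one held 1.46% of the counts. Titles number 6 replicates in each group and nothing else says that each is a different animal, so p-values measure the spread between these samples. Replicates differed beyond sampling noise (chi-square per gene 4.95 to 56.3, where noise gives 1).

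Low genes were removed by filterByExpr over the 3 groups (minimum count 10), TMM factors were computed and all 18 libraries were fitted together with edgeR 4.0.16 in R 4.3.3 (robust quasi-likelihood F-test, two-sided, Benjamini-Hochberg adjusted p below 0.05 over 14226 genes). Biological variation had a coefficient of 0.183. Standard errors are approximate, as the fold change over the square root of F. Deviations are on log2 CPM, prior count 2. Alternatives were other size factors and filters, DESeq2 1.42.0, voom in limma 3.58.1, the 12 libraries compared, a replicate block and leaving out each library. The fit was tested on simulated data.

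Members, role groups and the other lists were chosen with earlier results of these data known. Members past the threshold or with an absolute log2 fold change of at least 0.5 were named, Ppara always, and the rest are given by range and by examples for their role. Limits from counts of 0 cover counting error only. Some genes of the other lists are not reported here.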

Additional observations from a re-analysis of the deposited data

Results flagged for a closer look

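Within a group of 6 livers, the highest or lowest value was set against the other 5 with Dixon's test at the 95% level. This was done for 36 members in 3 groups, 108 cases in all. Chance gives about 1 in 20, and 14 cases in 11 members were past the limit, of which 9 were in old vehicle replicate 6.

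Old vehicle replicate 6 was high in each of these 9 genes. Acot1 was at 28.9 CPM in it, against 3.32 to 12.9 CPM in the other 5 vehicle livers. In the mitochondrial group, Slc25a20 was at 101 CPM (others 48.0 to 65.1), Cpt2 at 152 CPM (others 75.4 to 101), Crat, the carnitine acetyltransferase, at 69.1 CPM (others 31.7 to 41.5), Hadha at 355 CPM (others 222 to 269) and Etfdh, which passes electrons from the acyl-CoA dehydrogenases to ubiquinone, at 282 CPM (others 164 to 191). In the peroxisomal group, Hsd17b4 was at 355 CPM (others 249 to 288), Decr2 at 207 CPM (others 143 to 157) and Pex11a, which takes part in peroxisome division, at 74.6 CPM (others 26.2 to 42.5).

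Young replicate 5 was high in 3 genes: Slc27a2 at 1270 CPM (others 1033 to 1100), Acot1 at 30.5 CPM (others 12.6 to 17.2) and Hadha at 365 CPM (others 289 to 312). Among the ouabain livers, Pdk4 was high in replicate 1, at 11.6 CPM (others 5.34 to 7.64), and Slc25a20 was low in replicate 5, the shallowest library, at 71.5 CPM (others 80.3 to 85.3).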

How the results depend on the processing

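With all 18 libraries 12 calls were made over the 3 comparisons, and 8 of them stood in all 18 fits that leave out 1 library and 7 in all 9 other settings. Nudt7 stood in all 27 fits in both comparisons with old vehicle livers, and no named value changed direction. Leaving out 1 library gave 1 to 11 members called for old ouabain against old vehicle, 7 to 20 for old vehicle against young and 0 to 1 for old ouabain against young. For old ouabain against old vehicle, where edgeR called 2, DESeq2 called 4, voom with quality weights 5, the fit of only the 12 libraries compared 1, and leaving out old vehicle replicate 4 with old ouabain replicate 5 called 1. For old vehicle against young, where edgeR called 10, the fit of only 12 libraries called 6. For old ouabain against young, where edgeR called 0, DESeq2 called 2, and voom, voom with quality weights and the fit of only 12 libraries called 1 each. The share of all genes called in these other settings is not given here, so the counts show dependence on the setting only. The cause of these differences was not tested.

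Replicate numbers were shared between groups but did not pair the livers: 2, 1 and 0 of 6 pairs correlated above 0.1 in the 3 comparisons, and 2, 1 and 0 livers correlated best with their own number. With the number as a replicate block the members called were 4 under ouabain, 10 in old vehicle against young and 1 in old ouabain against young. The share of all genes called with the block is not given here either. The shallowest library held 4201251 counts. The spread of the members with and without old vehicle replicate 6 was compared after seeing the data.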
